A study of Caenorhabditis elegans with 9 samples.

Results

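The antimicrobial peptide genes of Caenorhabditis elegans described here are 36 of the 17118 genes that the array measured with a probe set of a single gene name. They were picked out by gene name, in a set of families proposed with earlier results of these data known: 8 caenacins (cnc), 5 antibacterial factors (abf), 5 fungus-induced proteins (fip), 8 fungus-induced protein related genes (fipr) and 10 of the neuropeptide-like genes nlp-24 to nlp-34. Where a gene had more than 1 probe set, which was so for 2 members (cnc-7 and fip-2), the probe set that was brightest on average over the 9 arrays was used. The RefSeq gene table lists 64 genes under these names, and the other 28 were not analysed here. The study measured RNA of whole first-stage (L1) larvae with 3 arrays for each of 3 genotypes: wild type, the ogt-1(ok430) strain and the oga-1(ok1207) strain. OGT-1 is the transferase that puts the sugar O-GlcNAc on proteins of the nucleus and cytoplasm, and OGA-1 takes it off again. Larvae of all 3 genotypes had hatched without food, were collected 48 h after the eggs were freed by bleaching and then fed on the E. coli strain OP50 for 3 h, so even wild type had met bacteria only briefly. RNA came from whole larvae, so fewer cells of a type and less RNA per cell cannot be told apart.

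These genes encode short secreted peptides of the worm's innate defence. Most of the nlp and cnc members are known from the epidermis, where nlp-29 is switched on by the fungus Drechmeria coniospora, by wounding and by osmotic stress. The response to fungus and wounding runs through a p38 MAP kinase cascade (TIR-1, NSY-1, SEK-1 and PMK-1) to the STAT-like factor STA-2. The gene cnc-2 is known to depend on the TGF-beta ligand DBL-1. The abf genes encode defensin-like peptides, and ABF-2 is known from the pharynx. The fip and fipr genes were named for induction by fungus or for resemblance to such genes.

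Signals of 22548 probe sets were used as deposited, on a log2 scale, and precision is limited by the 3 arrays in each group. Across probe sets, r was 0.992 to 0.997 between arrays of the same genotype and 0.985 to 0.995 otherwise. The labelled ogt-1 arrays stood apart on the first principal component, at 14.1 to 33.3 against values below 0 on the other 6. Their hybridisation spikes (9.72 to 10.08) were brighter than those of wild type (9.62 to 9.68) but overlapped those of the oga-1 mutant (9.50 to 9.77). The gap between the 3-prime and 5-prime signal of the actin, GAPDH and ubiquitin controls, a sign of RNA integrity, was 1.31 to 1.51 in the ogt-1 mutant, where wild type gave 1.27 to 1.35 and the oga-1 mutant 1.16 to 1.28. As a check of the labels, oga-1 itself fell in its own mutant (log2 difference -0.75 ± 0.10 SE and adjusted p = 0.0181 at the brightest of its 3 probe sets, with -0.58, adjusted p = 0.0648, and -0.30, adjusted p = 0.373, at the others), whereas ogt-1 did not fall in its mutant (0.48 ± 0.17, adjusted p = 0.187, and 0.70 ± 0.11, adjusted p = 0.0141, at its 2 probe sets), so directions for that group rest on its label. The place of the ogt-1 probes relative to the deletion was not checked. Markers of adults and embryos averaged 6.45 to 6.74 on all arrays, with 3 of 11 at or above 7.45, the median of the probe sets' means, and the adult collagen gene col-19 averaged 5.15 in wild type. Markers of the epidermis (14 measured, 5 above that median), of the intestine (9 of 9), of the pharynx (5 of 8) and of neurons (8 of 9) were all represented.

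In the ogt-1 mutant 5 of the 36 genes rose, 0 fell and 31 were not called, where a call is a limma p under 0.05 after Benjamini-Hochberg adjustment over all 22548 probe sets. The share of all probe sets called higher in that comparison was 1.19% and the share called lower was 1.4%, together 2.59%. The 5 were cnc-4, cnc-2, cnc-3, nlp-31 and nlp-33, all of the epidermal cnc and nlp families. At an unadjusted p under 0.05, 14 members were higher and 1 was lower, beside 6.83% and 8.95% of all probe sets. In the oga-1 mutant 1 of the 36 rose (fip-5), 0 fell and 35 were not called, against 0.386% and 0.111% of all probe sets, and at an unadjusted p under 0.05 15 members were higher and 0 lower, beside 6.38% and 5.14%. On the log2 scale the 36 genes had a median difference of 0.19 with ogt-1 deleted and 0.20 with oga-1 deleted, beside 0.00 and 0.01 for all probe sets. The 3 wild-type arrays serve in both comparisons, which therefore share those arrays' deviations.

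**Figure D1:**
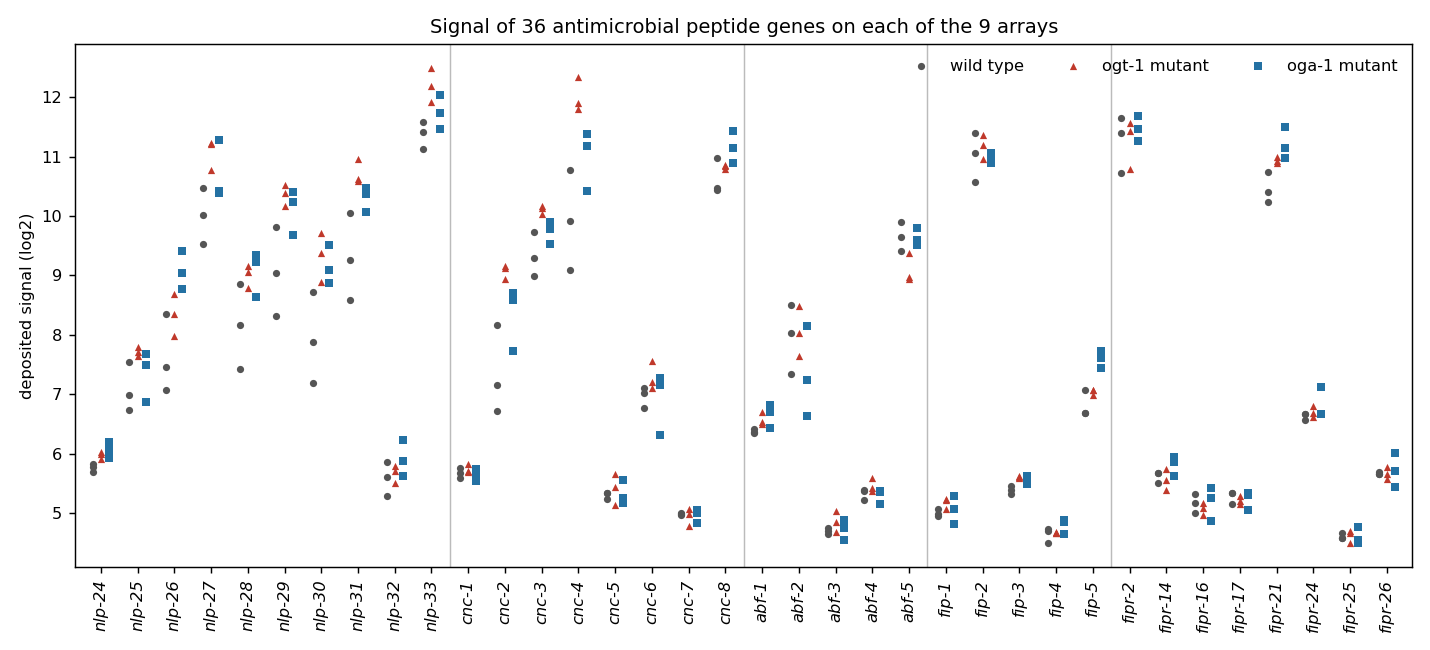
Deposited log2 signal (vertical axis) of each of the 36 genes (horizontal axis, grouped by family between the grey lines) on the 3 wild-type arrays (grey circles), 3 ogt-1 mutant arrays (red triangles) and 3 oga-1 mutant arrays (blue squares). The wild-type points of cnc-2, cnc-4, nlp-26, nlp-28 to nlp-31 and abf-2 spread over more than 1 log2 unit. The ogt-1 mutant points of cnc-2, cnc-3 and cnc-4 lie above all wild-type points.

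The run of nlp-27, nlp-28, nlp-29, nlp-30 and nlp-31, which are neighbours on 1 chromosome, had higher means in both mutants, and 1 of the 5 (nlp-31, in the ogt-1 mutant) was called. For nlp-31, whose peptide is known to act against fungi, wild type 1 to 3 measured 8.59, 9.26 and 10.05, the ogt-1 mutant 10.97, 10.62 and 10.58, and the oga-1 mutant 10.07, 10.36 and 10.48. All mutant arrays lay above all wild-type arrays, although wild type 3 lay just below oga-1 mutant 1. The rise in the ogt-1 mutant was 2.68-fold (log2 difference 1.42 ± 0.30 SE, n = 3, limma adjusted p = 0.0383). In the oga-1 mutant the difference of nlp-31 was 1.00 ± 0.30 and was not called (adjusted p = 0.238), with a 95% interval of 0.34 to 1.67 that is not adjusted for the number of tests.

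The gene nlp-29, the usual reporter of this defence, measured 8.33, 9.04 and 9.82 in wild type, 10.52, 10.39 and 10.17 in the ogt-1 mutant and, with oga-1 deleted, 9.69, 10.23 and 10.41. Its ogt-1 mutant arrays lay above all wild-type arrays, while the lowest oga-1 mutant array lay below wild type 3. The difference was 1.30 ± 0.32 (adjusted p = 0.0697) with ogt-1 deleted and 1.05 ± 0.32 (adjusted p = 0.255) with oga-1 deleted, and neither passed the threshold. For nlp-30 the values were 7.19, 7.89 and 8.72 in wild type, 9.71, 9.38 and 8.89 in the ogt-1 mutant and, with oga-1 deleted, 8.88, 9.51 and 9.09. Both mutants of nlp-30 lay above all wild-type arrays, by 1.39 ± 0.35 (adjusted p = 0.0712) and 1.23 ± 0.35 (adjusted p = 0.214). The other members of the run gave differences of 1.06 ± 0.28 (nlp-27) and 0.85 ± 0.31 (nlp-28) in the ogt-1 mutant and of 0.69 ± 0.28 and 0.91 ± 0.31 in the oga-1 mutant, none called. The replicate number was taken to pair the arrays of the ogt-1 mutant and wild type, but the main fit did not use it. With it as a block, nlp-27 (adjusted p = 0.0171) and nlp-29 (adjusted p = 0.0316) were also called higher in the ogt-1 mutant.

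All 5 probe sets of this run carry the mark of possible cross-hybridisation (_x_at), so signal from 1 gene may be read by the probes of another, and the genes do not count as 5 independent measurements. The 7 measured genes on either side of the run, which include the chemoreceptor genes str-82, str-83, srx-62, srh-7 and srh-8, gave differences from -0.42 to 0.79 in the ogt-1 mutant and from -0.14 to 0.32 in the oga-1 mutant. None of the 7 was called, and srx-62 had the highest value in the ogt-1 mutant (0.79, adjusted p = 0.118). The signals of these flanking genes averaged at most 6.33, below the median of all probe sets.

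Among the caenacins, cnc-2, cnc-3 and cnc-4 rose in the ogt-1 mutant while the adjoining cnc-1 and cnc-5 were not called. The cnc-4 signal was 9.09, 9.91 and 10.78 in wild type, 12.34, 11.91 and 11.81 in the ogt-1 mutant and, with oga-1 deleted, 10.43, 11.38 and 11.17. The ogt-1 mutant arrays lay above those of both other genotypes, and the oga-1 mutant overlapped wild type. Its rise of 4.26-fold (2.09 ± 0.38, n = 3, adjusted p = 0.0243) was the largest log2 difference among the 36 genes in either mutant, and its probe set carries no mark of cross-hybridisation. The DBL-1-dependent gene cnc-2 measured 6.71, 7.15 and 8.16 in wild type, 9.16, 9.13 and 8.94 in the ogt-1 mutant and, with oga-1 deleted, 7.73, 8.71 and 8.59. The rise in the ogt-1 mutant was 1.74 ± 0.34 (adjusted p = 0.0327), and the oga-1 mutant, at 1.00 ± 0.34 (adjusted p = 0.318), overlapped wild type. Signals of cnc-3 were 9.29, 8.999 and 9.73 in wild type, 10.17, 10.04 and 10.13 in the ogt-1 mutant and, with oga-1 deleted, 9.53, 9.79 and 9.90. Again only the ogt-1 mutant was clear of wild type, with a rise of 1.71-fold (0.77 ± 0.17, adjusted p = 0.0448), and the oga-1 mutant gave 0.39 ± 0.17 (adjusted p = 0.412).

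Of the other caenacins, cnc-6 gave 0.32 ± 0.23 (ogt-1 mutant) and -0.05 ± 0.23 (oga-1 mutant), and cnc-7 gave -0.03 and -0.02 in the same order, none called. The order of the run's genes along the chromosome is cnc-1, cnc-5, cnc-4, cnc-3 and cnc-2, so the 3 that rose stand side by side. In the ogt-1 mutant cnc-1 differed by 0.07 ± 0.09 and cnc-5 by 0.10 ± 0.14, and in the oga-1 mutant by -0.03 and 0.02. Both had low signals, with wild-type means of 5.68 and 5.31, where background was not assessed. The probe sets of cnc-1, cnc-2 and cnc-3 are marked (_x_at). The 6 measured genes around the run, among them the intestinal esterase gene ges-1, ranged from -0.61 to 0.13 in the ogt-1 mutant and from -0.27 to 0.19 in the oga-1 mutant, with 0 called in either direction.

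**Figure D2:**
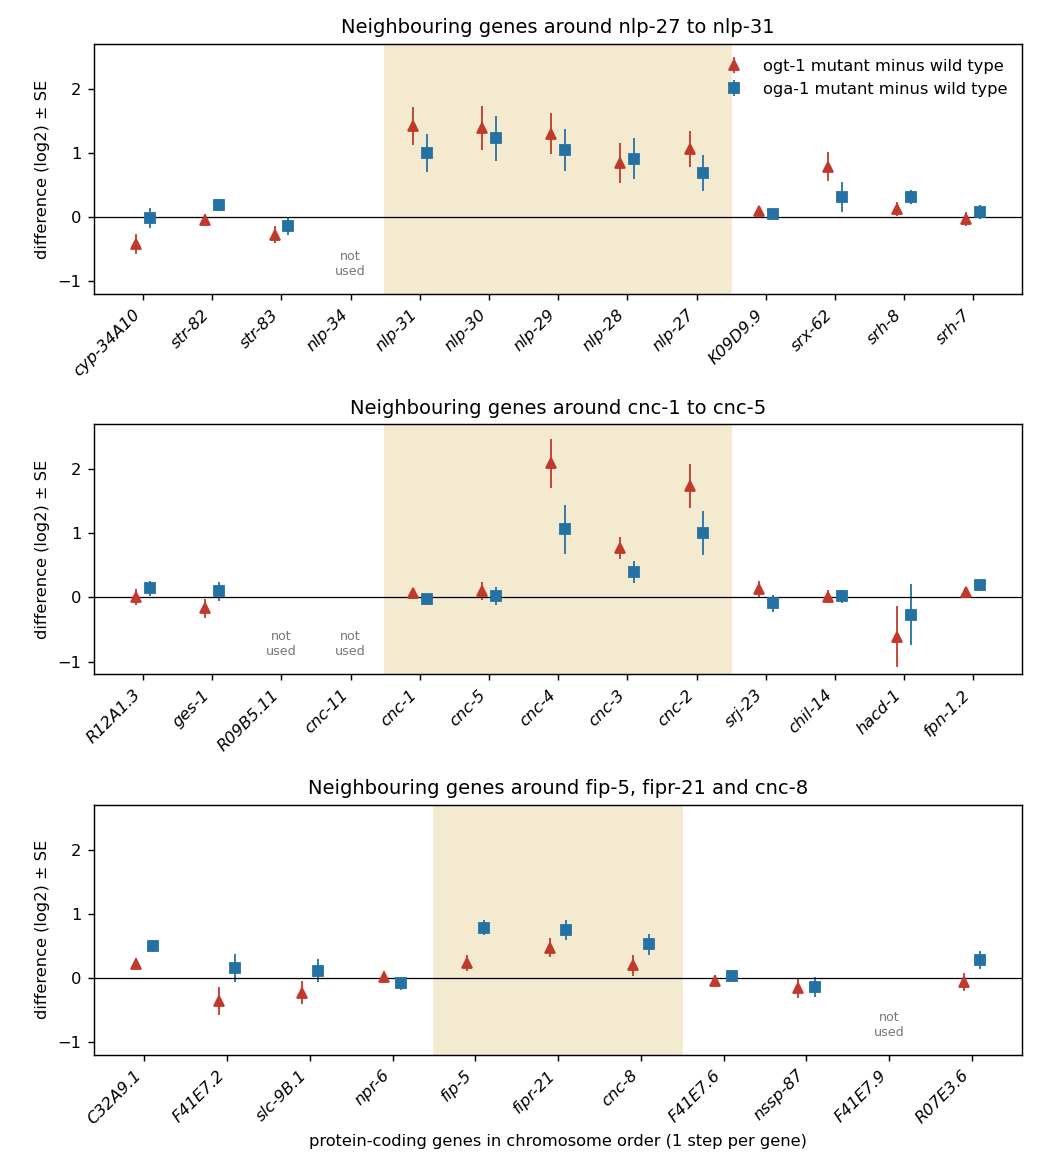
Log2 difference from wild type (vertical axis, mean ± SE of the limma model, 3 arrays a group) for protein-coding genes in chromosome order (horizontal axis, 1 step per gene) around 3 runs of members (shaded), in the ogt-1 mutant (red triangles) and the oga-1 mutant (blue squares). Differences of 0.69 to 1.42 stand at nlp-27 to nlp-31 and of 0.39 to 2.09 at cnc-2 to cnc-4, beside values near 0 at cnc-1 and cnc-5. "Not used" marks genes with no probe set of a single name.

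The third run holds fip-5, fipr-21 and cnc-8, and there the oga-1 mutant had the higher values. The fip-5 signal was 6.69, 6.68 and 7.07 in wild type, 6.99, 7.07 and 7.07 in the ogt-1 mutant and, with oga-1 deleted, 7.45, 7.61 and 7.73. Every oga-1 mutant array exceeded the other 6 arrays. The rise against wild type was 0.78 ± 0.12 (n = 3, adjusted p = 0.0269), on a signal just below the median of all probe sets at a marked probe set. For fipr-21 wild type measured 10.24, 10.40 and 10.74, the ogt-1 mutant 10.90, 10.99 and 10.92 and the oga-1 mutant 10.98, 11.15 and 11.50. Both mutants lay above all wild-type arrays, but neither difference was called (0.75 ± 0.15, adjusted p = 0.0883, in the oga-1 mutant and 0.47 ± 0.15, adjusted p = 0.155, in the ogt-1 mutant). The fipr-21 probe set is also marked (_x_at), so fip-5 and fipr-21 may not be independent measurements, while that of cnc-8 is unmarked. The caenacin cnc-8 measured 10.44, 10.48 and 10.97 in wild type, 10.84, 10.87 and 10.78 in the ogt-1 mutant and, with oga-1 deleted, 10.89, 11.15 and 11.44. Both mutants overlapped wild type, with 0.53 ± 0.16 in the oga-1 mutant (adjusted p = 0.263) and 0.20 ± 0.16 in the ogt-1 mutant, while all ogt-1 mutant arrays lay below all oga-1 mutant arrays. Of the 7 measured genes around this run 0 were called, and they ranged from -0.14 to 0.50 in the oga-1 mutant, the highest being C32A9.1 (adjusted p = 0.0547).

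Among the nlp members outside the run, nlp-33 rose and nlp-26 had the largest difference in the oga-1 mutant. Signals of nlp-33, known for induction by the same fungus, were 11.13, 11.42 and 11.58 in wild type, 12.50, 12.19 and 11.92 in the ogt-1 mutant and, with oga-1 deleted, 11.47, 12.04 and 11.74. The ogt-1 mutant was clear of wild type, with a rise of 1.77-fold (0.82 ± 0.18, n = 3, adjusted p = 0.0470, marked probe set), and the oga-1 mutant overlapped it (0.38 ± 0.18). For nlp-26 the values were 7.07, 7.46 and 8.35 in wild type, 8.69, 8.36 and 7.98 in the ogt-1 mutant and, with oga-1 deleted, 8.77, 9.03 and 9.42. The oga-1 mutant lay above every other array, by 1.45 ± 0.30 over wild type (adjusted p = 0.0979), and the ogt-1 mutant overlapped wild type (0.72 ± 0.30). Of the remaining nlp genes, nlp-25 gave 0.62 ± 0.23 (ogt-1 mutant) and 0.25 (oga-1 mutant), nlp-24 gave 0.20 and 0.29, and nlp-32 gave 0.08 and 0.33, none called. All 10 nlp members had a difference above 0 in each mutant, which held for 50.7% (ogt-1 mutant) and 53.5% (oga-1 mutant) of all probe sets. The ogt-1 mutant did not overlap wild type in 7 of the 10 and the oga-1 mutant in 4, where 9.98% and 9.41% of all probe sets were separate and higher. Over all 36 members those counts were 13 and 8, and separate and lower were 1 (abf-5) and 0, beside 11% and 6.66% of all probe sets.

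None of the 5 abf genes was called. The abf-5 signal was 9.64, 9.90 and 9.42 in wild type, 8.94, 9.37 and 8.97 in the ogt-1 mutant and, with oga-1 deleted, 9.52, 9.80 and 9.60. All ogt-1 mutant arrays lay below all others, and the difference from wild type was -0.56 ± 0.15 (adjusted p = 0.0931, and called with the replicate block, adjusted p = 0.0147). For abf-5 the oga-1 mutant differed from wild type by -0.02. The pharyngeal defensin gene abf-2 measured 7.35, 8.50 and 8.02 in wild type, 7.64, 8.04 and 8.49 in the ogt-1 mutant and, with oga-1 deleted, 6.64, 7.25 and 8.15. The groups overlapped, with 0.10 ± 0.39 for the ogt-1 mutant and -0.61 ± 0.39 for the oga-1 mutant, and the 95% intervals of -0.77 to 0.97 and -1.48 to 0.26 include 0. In abf-1, with 6.34, 6.36 and 6.41 in wild type, both mutants were separate and slightly higher (0.21 ± 0.11 and 0.28 ± 0.11). The differences of abf-3 and abf-4 lay between -0.03 and 0.15 in both mutants, at wild-type means of 4.70 and 5.33.

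The fip and fipr members apart from fip-5 and fipr-21 showed small differences. The fip-2 signal was 11.40, 11.06 and 10.56 in wild type, 11.37, 11.20 and 10.95 in the ogt-1 mutant and 10.89, 10.98 and 11.06 in the oga-1 mutant, so the mutants lay inside the wild-type range. Its differences were 0.17 ± 0.19 and -0.03 ± 0.19, and its second probe set ranged from 10.39 to 11.05 over the 9 arrays. Signals of fipr-2 were 11.65, 11.40 and 10.73 in wild type, 11.42, 11.56 and 10.79 in the ogt-1 mutant and 11.68, 11.47 and 11.27 in the oga-1 mutant, with differences of 0.00 ± 0.25 and 0.21 ± 0.25. On both genes wild type 3 was the lowest wild-type array, the reverse of its place at the nlp and cnc runs. The gene fip-3 was separate from wild type in both mutants but by 0.22 ± 0.08 and 0.18 ± 0.08 at a wild-type mean of 5.39, without a call, and fipr-16 gave -0.09 ± 0.14 and 0.02 ± 0.14. The other 7 of these genes (fip-1, fip-4, fipr-14, fipr-17, fipr-24, fipr-25 and fipr-26) differed by -0.07 to 0.19.

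**Figure D3:**
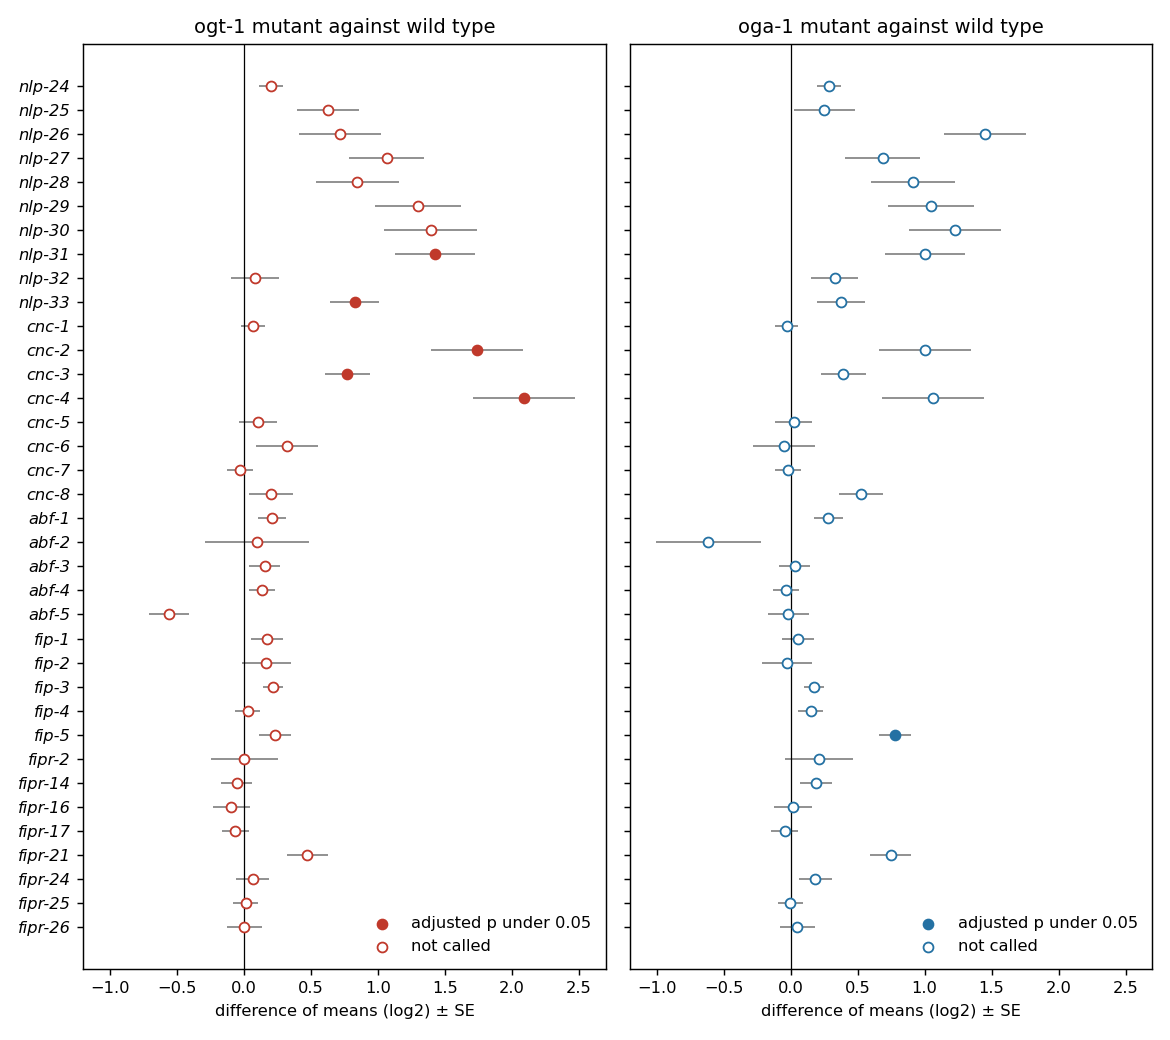
Difference of group means on the log2 scale (horizontal axis, ± SE of the limma model, 3 arrays a group) for the 36 genes, ogt-1 mutant against wild type on the left and oga-1 mutant against wild type on the right. Filled points passed an adjusted p of 0.05: cnc-4, cnc-2, nlp-31, nlp-33 and cnc-3 on the left and fip-5 on the right.

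No filter on signal was applied and all 36 were tested. The mean over all 9 arrays was below the median of all probe sets in 20 of them, and 11 of them lay below the lower quartile of all probe sets (5.67), where an absent transcript and a small change cannot be told apart.

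The wild-type arrays differed among themselves in these genes more than in most others. The range of the 3 wild-type arrays had a median of 0.416 over the 36 members and of 0.187 over all probe sets. A wide spread was not limited to wild type. The median standard deviation of the members was 0.223 in wild type, 0.225 in the oga-1 mutant and 0.133 in the ogt-1 mutant. Over all probe sets it was 0.099, 0.133 and 0.119 in the same order. The wild-type standard deviation was 0.746 for nlp-29, 0.763 for nlp-30, 0.743 for cnc-2 and 0.847 for cnc-4, at percentiles 99.6, 99.6, 99.5 and 99.7 of all probe sets. In the ogt-1 mutant the same genes had standard deviations of 0.174, 0.414, 0.119 and 0.283 (percentiles 71.9, 97.3, 50.3 and 91.2). The oga-1 mutant gave 0.377, 0.320, 0.534 and 0.499 (percentiles 97.1, 94.2, 99.3 and 99.1). Wild type 1 was lowest and wild type 3 highest in 18 of the 36 members, and in 22.1% of all probe sets. The wild-type arrays were also graded in this order on the second principal component of all probe sets (19.7% of the variance), at 24.6, 13.2 and 3.71. The part of that component in these genes was not tested. Averaged over nlp-27 to nlp-31 the wild-type arrays stood at 8.21, 8.88 and 9.58, the ogt-1 mutant at 10.31, 10.04 and 9.93 and the oga-1 mutant at 9.53, 9.97 and 10.10. Over cnc-2 to cnc-4 they stood at 8.36, 8.69 and 9.56, at 10.56, 10.36 and 10.29 and at 9.23, 9.96 and 9.89. Wild type 3 thus lay closer to the oga-1 mutant than to wild type 1 at both runs, while over cnc-1 and cnc-5 all 9 arrays stayed between 5.36 and 5.74.

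**Figure D4:**
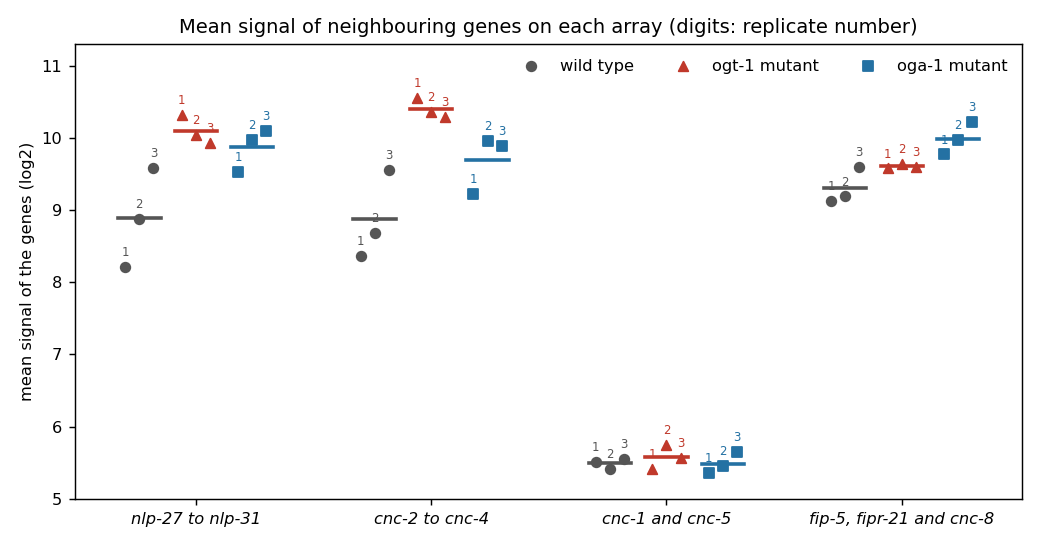
Mean log2 signal (vertical axis) over the genes named on the horizontal axis, for each array (points, digits give the replicate number) with the mean of each genotype (bars), in wild type (grey circles), the ogt-1 mutant (red triangles) and the oga-1 mutant (blue squares). Wild type spans 8.21 to 9.58 at nlp-27 to nlp-31, and the oga-1 mutant is highest at fip-5, fipr-21 and cnc-8 (9.77 to 10.22).

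The calls rested on few arrays. The count of 5 genes higher in the ogt-1 mutant was 6 without wild type 3, 3 without oga-1 mutant 1, 2 without wild type 1, 1 without oga-1 mutant 2 or 3, and 0 without wild type 2 or any 1 of the ogt-1 mutant arrays. Calls over all probe sets also fell in these fits, but not in step with the members. From 268 higher and 316 lower they fell to 84 and 54 without wild type 2 and to 114 and 74 without ogt-1 mutant 1. Without wild type 3 they fell to 140 and 108, while the members' count rose to 6. Without wild type 1 they fell only to 246 and 287, while the members fell to 2. Without oga-1 mutant 3 they were 233 and 237, while the members fell to 1. Leaving out wild type 2 or ogt-1 mutant 1, 2 or 3 ended the call of cnc-4 (adjusted p = 0.0529 to 0.100) and leaving out any array but wild type 3 and oga-1 mutant 1 ended that of cnc-2 (0.0514 to 0.133). For cnc-3 any array but wild type 3 ended the call (0.0536 to 0.148), for nlp-31 any but wild type 1 and 3 (0.0566 to 0.140) and for nlp-33 any but oga-1 mutant 1 (0.0530 to 0.155). Their differences stayed above 0 throughout, at 1.67 to 2.52 for cnc-4, 1.42 to 2.15 for cnc-2 and 1.07 to 1.80 for nlp-31. Without wild type 3, nlp-29 (1.68, adjusted p = 0.0184) and nlp-30 (1.79, adjusted p = 0.0229) were called in the ogt-1 mutant, and nlp-26 (1.81, adjusted p = 0.0214) and nlp-31 (1.38, adjusted p = 0.0375) in the oga-1 mutant, where 3 members were then higher. Wild type 1 and 2 and oga-1 mutant 2 and 3 were each needed for the call of fip-5 in the oga-1 mutant (adjusted p without each, 0.0703 to 0.135). With the control gap as a covariate 0 members were called in the ogt-1 mutant (49 probe sets in all), and cnc-4 measured 1.73 ± 0.51, cnc-2 1.49 ± 0.48 and nlp-31 1.17 ± 0.40. Without the 3 arrays that lay farthest out on the first 2 principal components (wild type 1, ogt-1 mutant 1 and oga-1 mutant 3) 0 were called in either mutant, and cnc-4 measured 1.51 ± 0.36 (ogt-1 mutant) and 0.55 ± 0.36 (oga-1 mutant). In the oga-1 mutant nlp-29 then measured 0.53 ± 0.28 in place of 1.05, and nlp-27 0.16 ± 0.19 in place of 0.69. Leaving out 1 array, the uncalled differences in the oga-1 mutant ranged from 0.39 to 0.92 for nlp-27, 0.55 to 1.27 for nlp-28, 0.68 to 1.43 for nlp-29, 0.65 to 1.38 for nlp-31, 0.64 to 1.49 for cnc-4 and 0.22 to 0.59 for cnc-3.

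The mutants were also compared with each other. Of the 36 genes 0 were called higher and 1 lower in the ogt-1 mutant than in the oga-1 mutant, against 1.32% and 1.57% of all probe sets (2.89% together), and at an unadjusted p under 0.05 there were 3 each way (9.28% and 11.2% of all probe sets). The groups did not overlap in 4 members each way (10.3% and 12.6%), and 19 of the 36 had a difference above 0 (45.6%). The gene that was lower was fip-5 (-0.55 ± 0.12, adjusted p = 0.0418), and leaving out wild type 2, oga-1 mutant 2 or 3 or any array of the ogt-1 mutant ended that call (0.0613 to 0.120). For cnc-4 the ogt-1 mutant exceeded the oga-1 mutant by 1.03 ± 0.38 with no overlap (adjusted p = 0.170, unadjusted 95% interval 0.18 to 1.88). For nlp-26 it was lower by the mean, at -0.73 ± 0.30 (adjusted p = 0.215, interval -1.41 to -0.05), again with no overlap. The intervals of nlp-31 (-0.24 to 1.08) and nlp-29 (-0.46 to 0.97) include 0 as well as differences near 1 log2 unit. The abf-5 difference of -0.54 ± 0.15 (adjusted p = 0.0872) was called with the replicate block (adjusted p = 0.0179) and without ogt-1 mutant 2 (adjusted p = 0.0477).

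Regulators of these peptides were not called against wild type in the lists of their signalling pathways. Of 23 measured genes of the epidermal p38 and STAT pathway 0 rose and 0 fell in either mutant, with 2 higher and 1 lower at an unadjusted p under 0.05 in the ogt-1 mutant and, with oga-1 deleted, 0 and 1. The largest difference of that list in the ogt-1 mutant was in sta-2, the STAT-like factor that acts on nlp-29 (0.51 ± 0.14, adjusted p = 0.0897, marked probe set). In the oga-1 mutant sta-2 gave -0.14 ± 0.14, and it was called higher in the ogt-1 mutant than in the oga-1 mutant (0.65 ± 0.14, adjusted p = 0.0393). The MAP kinase gene pmk-1 differed by -0.10 ± 0.23 and -0.44 ± 0.23 and the adaptor gene tir-1 by 0.10 and 0.03. Of 14 measured genes of the DBL-1 pathway 0 were called in either mutant, with 1 higher and 4 lower at an unadjusted p under 0.05 in the ogt-1 mutant and, with oga-1 deleted, 1 and 0. The ligand gene dbl-1 differed by -0.06 and -0.14, the SMAD gene sma-3 by -0.30 and -0.10, and the receptor gene sma-6 by -0.34 ± 0.10 (adjusted p = 0.136) and -0.01. Between the mutants sma-9, a zinc finger cofactor of that pathway, was higher in the ogt-1 mutant (0.41 ± 0.09, adjusted p = 0.0408).

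Among 13 measured genes of the cuticle furrows and the osmotic response, among them genes whose loss is known to switch on nlp-29, 1 was called in each mutant. The gene was osm-11, a secreted regulator of the osmotic response, which fell in the ogt-1 mutant (-0.71 ± 0.12, adjusted p = 0.0194) and rose in the oga-1 mutant (0.80 ± 0.12, adjusted p = 0.0269), at a marked probe set. The furrow collagen genes dpy-2, dpy-3, dpy-7, dpy-8 and dpy-9 were not called in either mutant. Their differences were -0.26 to 0.14 (ogt-1 mutant) and 0.28 to 0.38 (oga-1 mutant). At an unadjusted p under 0.05, 0 of the 13 genes were higher and 1 was lower in the ogt-1 mutant. In the oga-1 mutant 4 were higher and 0 lower.

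Markers of the epidermis, the tissue in which most nlp and cnc members are known, were 0 higher and 0 lower of 14 in each mutant. Their mean signal was 7.67 to 7.87 in wild type, 7.55 to 7.75 in the ogt-1 mutant and, with oga-1 deleted, 7.89 to 8.16. The lowest oga-1 mutant mean thus lay just above the highest wild-type mean, and the ogt-1 mutant arrays overlapped wild type. At an unadjusted p under 0.05, 4 of the 14 markers were higher and 1 was lower in the oga-1 mutant. In the ogt-1 mutant 0 were higher and 2 lower. The furrow collagen genes dpy-2, dpy-3, dpy-7, dpy-8 and dpy-9 stand in both this list and the furrow list, so these lists are not independent. The intestinal markers nhx-2 (-0.74) and elt-7 (-0.77) fell in the ogt-1 mutant, with 0 of 9 higher, and their list averaged 10.71 to 11.06 there against 11.20 to 11.34 in wild type. Of the 8 pharyngeal and 9 neuronal markers 0 were called in either mutant. The catalase control gap, another sign of RNA integrity, was 1.32 to 2.09 in the ogt-1 mutant where wild type gave 0.721 to 1.12 and the oga-1 mutant 0.979 to 1.13, and its part in the differences was not tested.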

How the data were processed

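Total RNA (4 ug, per the labels' protocols) was labelled and hybridised to Affymetrix arrays, 1 per sample, with 3 samples called biological replicates in each genotype. Separate cultures are not stated, so p-values measure the spread between these samples. The deposited values are on a log2-like scale, and MAS5, RMA and Partek are listed, with neither role nor version, per the submitters' processing notes. No label states the log base, and log2 was read from the range of values (3.74 to 14.9). Array medians of 7.42 to 7.47 were not rescaled.

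Of 22625 probe sets, 77 controls were left out. All 9 arrays entered 1 linear model by genotype in limma 3.58.1 (R 4.3.3), with moderated tests and Benjamini-Hochberg adjustment over the 22548 others, and the code was tested on simulated data. Of the 36 genes, 35 matched the RefSeq table by gene ID and 1 by symbol, and that table gave names and gene order only. Genes described are those called, those with the largest differences or the highest signals in each family, and their neighbours in a run. The members and gene lists were chosen with earlier results of these data known. Another 6 probe sets that carry a family name and further names were kept out.

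Arrays with the same replicate number deviated together between the ogt-1 mutant and wild type (r = 0.192, 0.100 and 0.303) and between the mutants (0.107, 0.200 and 0.322), so the numbers were taken to pair those arrays. Between the oga-1 mutant and wild type they were not (0.120, 0.00520 and 0.214). Alternatives covered normalization, filtering, probe choice, blocking, weighting, the variance trend, RNA quality and each array left out.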

Additional observations from a re-analysis of the deposited data

Results flagged for a closer look

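The gene fip-5 differed between the mutants. The effect of the ogt-1 deletion on its signal minus the effect of the oga-1 deletion was -0.55 on the log2 scale (limma, adjusted p = 0.0418), with all 3 oga-1 mutant arrays above all 3 ogt-1 mutant arrays. The wild-type arrays cancel in that difference, and the probe set is marked for possible cross-hybridisation.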

How the results depend on the processing

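The count of 5 genes higher in the ogt-1 mutant was 4 after quantile normalization or median centring. It was 5 with the filter on low values, with array weights and with a variance trend. Averaging over probe sets also gave 5, but the called genes have 1 probe set each, so their differences did not change. Preferring unmarked probe sets could change nothing, because cnc-7 and fip-2, the only members with a second probe set, have only marked ones. The marked genes were therefore not measured free of possible cross-hybridisation. The count of 5 fell to 0 when only the groups compared were fitted (154 probe sets higher in all, in place of 268). It was also 0 with the control gap as a covariate (35 in all) and without the 3 outlying arrays (133 in all, an alternative chosen after seeing the data). Leaving out 1 array gave 0 to 6. The count of 1 gene higher in the oga-1 mutant was 0 under the same 3 alternatives and 0 to 3 with 1 array left out. The count of 1 gene lower in the ogt-1 than in the oga-1 mutant was 0 with weights, with the covariate and without the 3 outlying arrays, and 0 to 1 with 1 array left out. With the replicate block the counts were 7, 2 and 2, and 1 gene (abf-5) was lower in the ogt-1 mutant than in wild type in place of 0. Over all probe sets the block moved that comparison from 268 higher and 316 lower to 435 and 599. In the oga-1 mutant, where pairing with wild type was less clear, the block added fipr-21 (adjusted p = 0.0270). Under these alternatives no difference of the 6 members called against wild type turned its direction, and the genes named outside the 36 were not compared across them. With 3 arrays a group, 20 of 36 members below the median signal and 20 of 36 probe sets marked, small changes, and single genes read by marked probe sets, cannot be resolved.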

Other observations

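Exactly equal values on 2 or more arrays occurred in 8448 of the 22548 probe sets and in 9 of the 36 members, among them fip-5, which read 7.07 on wild type 3 and on ogt-1 mutant 2 and 3. The probe set named for both cnc-11 and R09B5.11, beside the cnc run, read 11.38, 11.13 and 10.98 in wild type, 11.06, 11.07 and 10.98 in the ogt-1 mutant and 10.81, 11.10 and 10.79 in the oga-1 mutant. It cannot be given to either gene.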
